A study of Mus musculus with 18 samples.

Results

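Voltage-gated channels open and close as the voltage across the cell membrane changes, and they let neurons fire, release transmitter and set their resting state. Among the 35006 gene names counted in mouse retina, 44 encode subunits of 3 such channel classes, and all of them were taken by name alone: every symbol of a sodium channel subunit (Scn), of a voltage-gated calcium channel subunit (Cacna1, Cacna2d, Cacnb, Cacng) or of a hyperpolarization-activated HCN channel (Hcn). They fall into 7 families, with 10 sodium channel alpha genes, 4 sodium channel beta genes, 10 calcium channel alpha1 genes, 4 alpha2delta genes, 4 beta genes, 8 gamma genes and 4 HCN genes. All 44 had at least 1 count. An expression filter on the whole table kept 40 of the 44, and left out Scn10a, Scn11a, Cacng1 and Cacng6, which had 7, 32, 2 and 4 counts over all 18 libraries.

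Sodium channel alpha subunits form the pore that carries the upstroke of the action potential, and beta subunits adjust its gating and hold it in place. Calcium channel alpha1 subunits form the pore, alpha2delta and beta subunits bring it to the membrane, and most gamma genes named Cacng encode proteins that also accompany AMPA-type glutamate receptors. HCN channels open when the membrane hyperpolarizes and carry a mixed cation current. In the retina, photoreceptors and bipolar cells release glutamate at ribbon synapses when calcium enters through calcium channels, without firing sodium spikes for that purpose. Ganglion cells and many amacrine cells, by contrast, fire action potentials.

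Poly(A) RNA of the retina of male mice was sequenced from 2 genotypes, each with and without a drug. WT mice were C57BL/6J. Akita mice (C57BL/6-Ins2Akita/J) carried 1 mutant copy of Ins2, an insulin gene, which harms the insulin-producing cells of the pancreas and makes the animals diabetic early in life. Treated mice of either genotype drank water with NACET, an antioxidant that is the ethyl ester of N-acetylcysteine (0.33 mg/mL, which gave 50 mg/kg each day) between 4 and 24 weeks of age, and the others drank plain water. There were 3 WT, 6 WT + NACET, 4 Akita and 5 Akita + NACET libraries. The labels do not say whether each library came from a separate animal. The p-values set each group difference against the spread between these libraries, which may in part be technical. If libraries share an animal, p-values may be too small for a statement about mice.

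Each library held 11590384 to 18073791 counts in genes, of which the 44 channel genes took 15778 to 23183 counts, or 0.103 to 0.160%. That share was 0.144 ± 0.0131% in WT (SD, n = 3), 0.123 ± 0.0148% in WT + NACET (n = 6), 0.113 ± 0.00681% in Akita (n = 4) and 0.141 ± 0.0125% in Akita + NACET (n = 5). The share of reads that fell outside annotated exons was likewise higher in WT and Akita + NACET, at 16.3 ± 1.24% in WT, 12.7 ± 2.74% in WT + NACET, 11.5 ± 1.83% in Akita and 16.4 ± 2.11% in Akita + NACET. Cell type markers also varied with the groups, and the part of those given here in the channel results was not tested. Rod genes were abundant, as in any retina, and varied: the summed level of 5 rod markers ranged from 26344 to 36939 CPM (counts scaled to library size with TMM factors) in WT, from 32898 to 44589 in WT + NACET, from 34564 to 49910 in Akita and from 23910 to 32028 in Akita + NACET. The sum of 6 bipolar cell markers was 395 to 574 CPM in WT, 301 to 466 in WT + NACET, 252 to 424 in Akita and 337 to 620 in Akita + NACET. Markers of the pigment epithelium, the layer next to the retina, summed to 156 to 559 CPM in WT, 346 to 1500 in WT + NACET, 61.3 to 224 in Akita and 92.4 to 699 in Akita + NACET. In bulk retina, fewer cells of a type and less RNA per cell cannot be told apart.

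Some libraries stood apart within their group. Akita library 4 had the highest rod sum of all and the lowest sum of 6 ganglion cell markers (532 CPM, against 769 to 1636 in the other 17 libraries), and its counts differed from those of the other 3 Akita libraries with a chi-square of 27.5 to 50.4 per gene, against 7.19 to 18.1 among those 3. WT + NACET library 5 differed as much from the other 5 of its group, by 39.2 to 50.8 against 6.31 to 25.8. Akita + NACET library 5 differed from its group by 16.2 to 27.5 against 4.67 to 11.9. Cryaa, a lens crystallin, was at 9815 CPM in WT + NACET library 5, 770.2 in Akita library 2, 423 in Akita + NACET library 3 and 107.5 in Akita + NACET library 5, and at 0.228 to 21.9 CPM in the other 14.

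The order of levels was led by genes of the photoreceptor synapse. Per kilobase of annotated exon, Cacna2d4 was the most abundant of the 44, at 60.8 ± 10.3 CPM per kilobase (SD, n = 18), followed by Cacna1f at 23.7 ± 3.74. Cacna1f encodes the pore of the calcium channel at the rod and cone ribbon synapse, and Cacna2d4 its alpha2delta partner. The range of Cacna2d4 over the libraries (45.8 to 88.8) did not meet that of Cacna1f (17.3 to 32.1). Lower in the order stood Cacng3 (21.6 ± 4.21), Cacnb3 (14.0 ± 2.88) and Scn2b (13.4 ± 3.56), each the most abundant member of its family, and from Cacna1f downward neighbours in the order overlapped in range. Among sodium channel alpha genes Scn1a led with 4.84 ± 1.19, ahead of Scn2a1 (3.26 ± 0.84), Scn8a (2.58 ± 0.65) and Scn4a (2.25 ± 1.27), and these 4 ranges overlapped. Cacna1c and Cacna1e were the least abundant members that passed the filter, below 0.2 CPM per kilobase in every library.

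**Figure D1:**
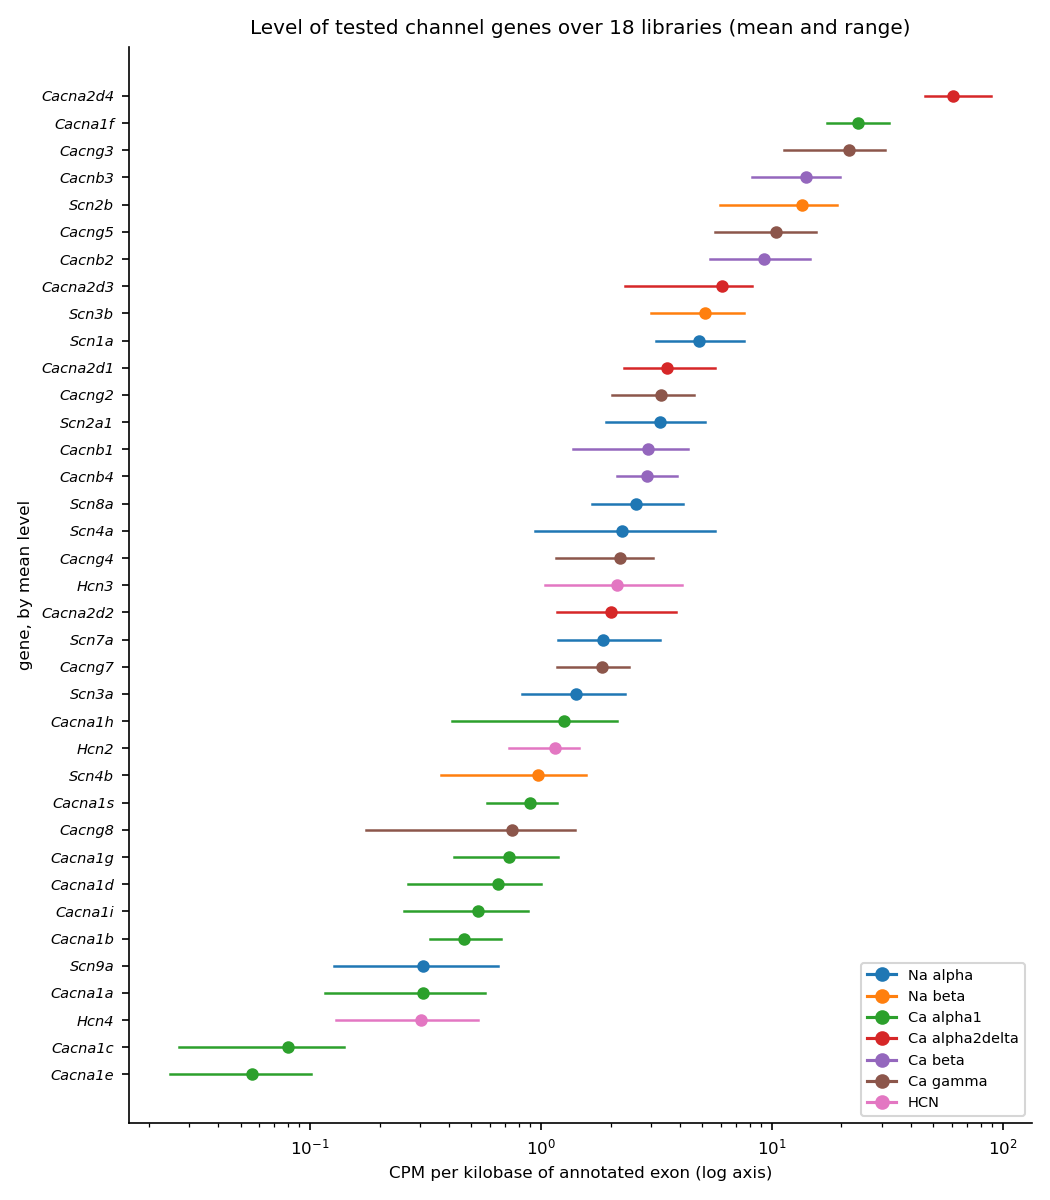
Level of 37 of the 40 tested channel genes in CPM per kilobase of annotated exon, on a log axis, with the mean over 18 libraries as a point and the range as a line, coloured by family. Cacna2d4 lies apart at the top with a mean of 60.8, and no range below it reaches its lowest library.

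Because the 2 photoreceptor genes made up much of the total, the other 42 channel genes were also summed apart. Cacna2d4 and Cacna1f together took 40.9 ± 4.85% of the CPM of all 44 in WT, 46.5 ± 4.86% in WT + NACET, 50.8 ± 6.06% in Akita and 38.7 ± 2.93% in Akita + NACET. The summed level of the other 42 was 941, 753 and 730.3 CPM in the 3 WT libraries and 606, 655, 596 and 552 CPM in the 4 Akita libraries. In the 5 Akita + NACET libraries the same sum was 917, 806, 752, 738 and 887 CPM, and in WT + NACET it ran from 578 to 759 CPM with a median of 651. Every Akita library was thus below every WT and every Akita + NACET library in this sum, and WT + NACET overlapped all 3 groups. With Cacna2d4 and Cacna1f kept in, the groups overlapped. The 44 then summed to 1315 to 1455 CPM in WT and 1103 to 1359 in Akita. In WT + NACET they summed to 1074 to 1373 CPM, and in Akita + NACET to 1249 to 1414.

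The comparison of Akita with WT asked what differed between the untreated retinas of diabetic and WT mice. Of the 40 genes tested, 8 passed an adjusted p of 0.05 in edgeR's quasi-likelihood test (20.0% of the members), where 7.64% of all 16183 genes tested did. Only Scn4a was higher (3.28-fold, with 3.96% of all genes called higher). Cacna2d1, Cacna1d, Hcn3, Cacna1i, Cacng3, Scn2a1 and Cacng2 were lower (3.68% of all genes were called lower), with log2 fold changes from −1.08 to −0.61. Of the 40 fold changes 34 were negative, with a median of −0.54 on the log2 scale against −0.01 over all genes tested, of which 48.4% were positive. At an unadjusted p under 0.05 there were 21 members, against 27% of all genes. The libraries of the groups did not overlap for 19 of the 40 members (23.2% of all genes), among them 7 of the 8 that passed.

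The comparison of Akita + NACET with Akita asked what the treatment changed in diabetic retinas, and it uses the same 4 Akita libraries. Here 13 members passed (32.5%), against 9.65% of all genes. The 12 that were higher with NACET (4.51% of all genes were) are Scn1a, Scn2a1, Scn3a, Scn8a, Cacna1b, Cacna1d, Cacna1i, Cacna1e, Cacna2d1, Cacna2d2, Cacng2 and Hcn3. Cacna2d4 alone was lower (5.14% of all genes). At an unadjusted p under 0.05 there were 24 members, against 29% of all genes. The median log2 fold change of the 40 was 0.56, 36 were positive (49.6% of all genes), and 16 had no overlap between the groups (14.1% of all genes).

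**Figure D2:**
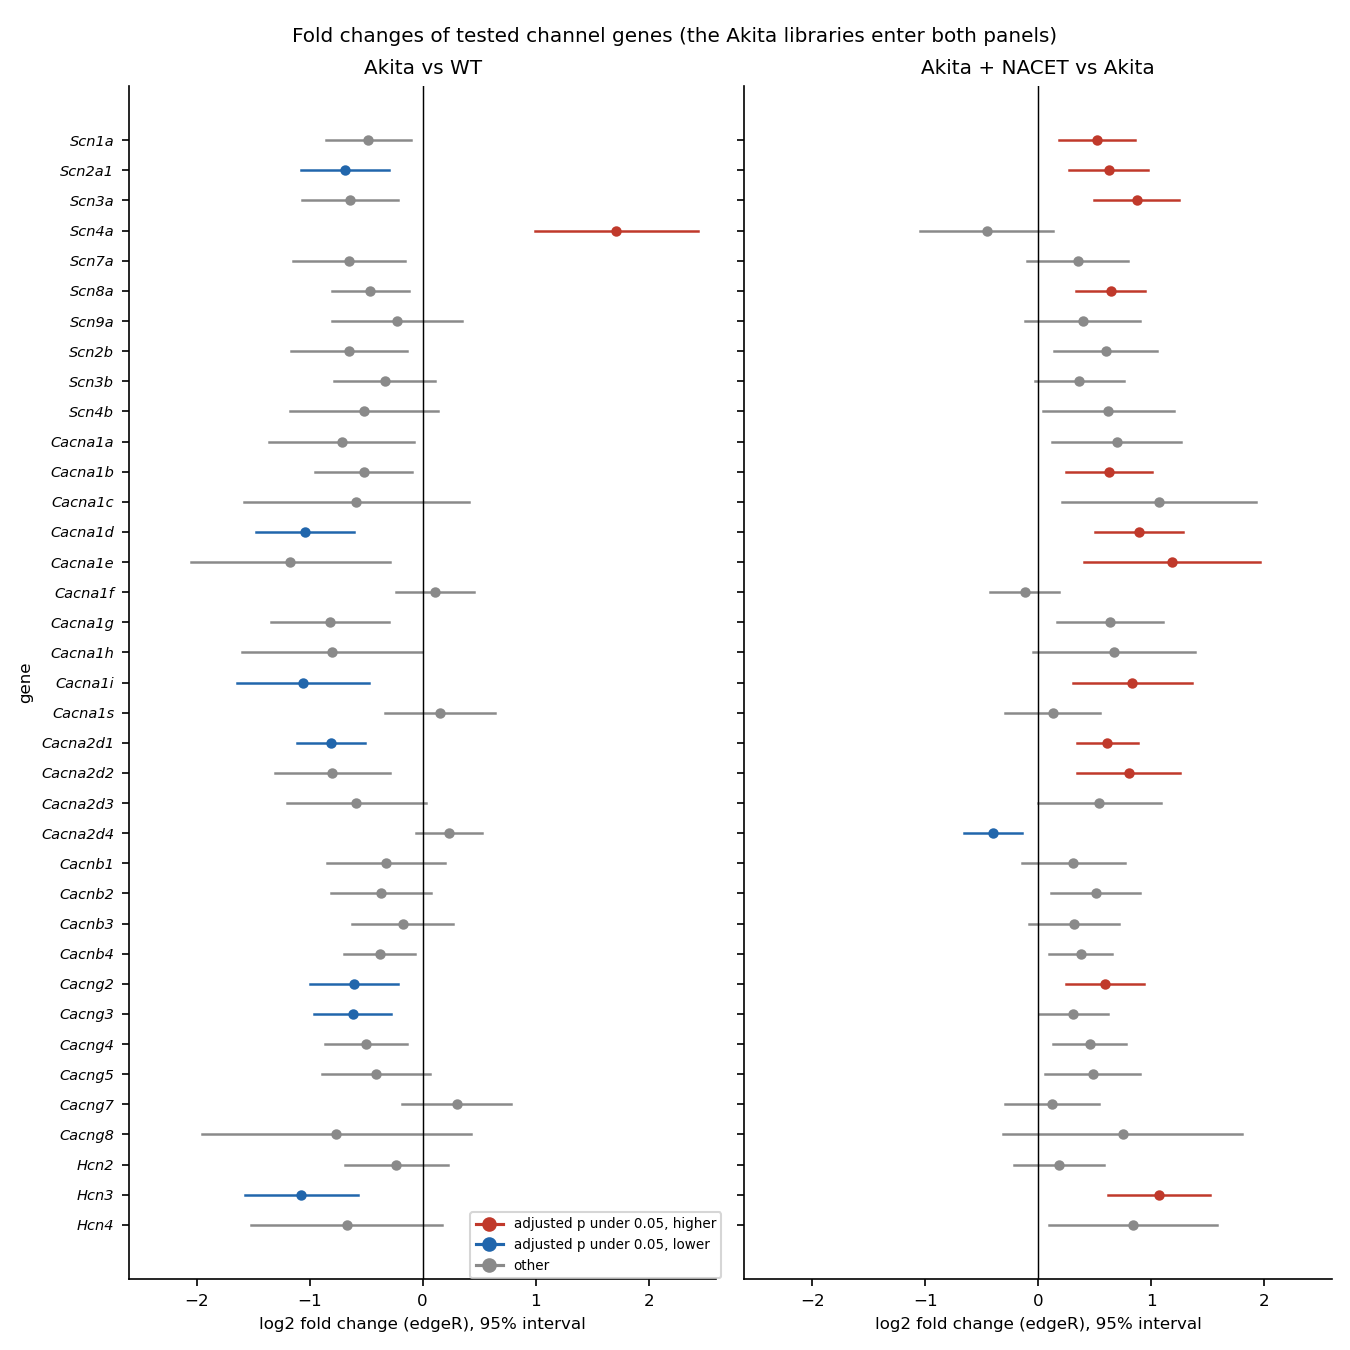
Log2 fold change of 37 tested channel genes with its 95% interval from edgeR, for Akita against WT (left) and Akita + NACET against Akita (right). Filled colours mark an adjusted p under 0.05. Scn4a lies alone at 1.72 on the left, 32 of 37 points there are below 0, and 34 of 37 on the right are above 0. The panels share the 4 Akita libraries.

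Library choice bore on these counts, for all genes as well as for the members. Without WT replicate 1 or WT replicate 2 no gene of the 16485 or 16432 tested passed in Akita against WT, members included. Without Akita replicate 4 there were 4 members and 234 genes in all, and without Akita replicate 1 there were 5 members and 868 genes, in place of 8 and 1237. In Akita + NACET against Akita, 13 members and 1562 genes in all became no member and 1 gene when Akita replicate 4 was left out, and 1 member and 101 genes when Akita + NACET replicate 5 was. Leaving out Akita replicate 1 gave 5 members and 808 genes, and leaving out Akita + NACET replicate 2 gave 5 and 425. Without Akita + NACET replicate 1 there were 8 members and 1543 genes, and without Akita + NACET replicate 4 there were 8 and 872.

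The share of reads outside exons was 14.9 to 17.1% in WT, 9.67 to 13.3% in Akita and 14.3 to 19.8% in Akita + NACET. It did not overlap between the groups of either comparison. A fit with it as a term over all 18 libraries relies on its spread within groups, and separates share and group poorly. With each library's percentage of reads beyond exons in the model, 0 members and 0 genes passed in either comparison. The fold changes of 4 of the 8 members shrank there by over 1.5 times, to −0.63 for Cacna1d, −0.50 for Cacna1i, −0.52 for Cacna2d1 and −0.52 for Hcn3. So did those of 9 of the 13 that had passed in Akita + NACET against Akita, among them Scn8a (0.22), Cacna1b (0.24), Cacna2d2 (0.26), Cacna1i (0.27) and Hcn3 (0.49). Cacna2d4 was −0.42 there, and Cacng3 in Akita against WT −0.61.

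Sodium channel alpha genes split into Scn4a and the neuronal members. Scn4a encodes the pore of the main sodium channel of skeletal muscle, and it lies on chromosome 11 (mm9, 106179906 to 106214602, minus strand). Its level was 6.61, 8.71 and 7.89 CPM in WT and 28.9, 23.3, 9.86 and 39.9 CPM in Akita. In Akita + NACET it was 28.6, 16.97, 15.8, 18.2 and 13.1 CPM, and in WT + NACET 9.68 to 13.3 CPM (median 10.9). All 15 libraries of the other groups thus exceeded the highest WT library, Akita replicate 3 stood with the WT + NACET libraries, and the remaining 3 Akita libraries and Akita + NACET replicate 1 were the 4 highest. The rise from WT to Akita was 1.72 ± 0.34 on the log2 scale (± SE, as in all log2 fold changes that follow, adjusted p = 0.0162). The difference between Akita + NACET and WT was 1.26 ± 0.33, with an adjusted p of 0.707 in edgeR and of 0.0476 in DESeq2. In WT + NACET against WT it was 0.54 ± 0.32 (adjusted p = 0.358) and in Akita + NACET against Akita −0.46 ± 0.28 (0.292), neither past the threshold.

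The difference in Scn4a stayed between 1.42 and 1.99 on the log2 scale in 26 other fits and passed in 22 of them. The rise over WT was 1.68 with that share of reads in the model (adjusted p = 0.273) and 1.42 without Akita replicate 4 (0.0466), and the adjusted p was 0.108 and 0.0691 without WT replicate 1 or 2. Skeletal muscle markers were low in all groups: the sum of 12 such genes was 6.75 to 15.2 CPM in WT, 9.41 to 11.9 in WT + NACET, 8.48 to 11.0 in Akita and 8.06 to 10.3 in Akita + NACET, none of the 4 that could be tested passed, and the muscle myosins Myh1, Myh2 and Myh4 had 4, 8 and 5 counts over all libraries. Of the 5 rod markers summed above, only Nrl passed as higher in Akita against WT (3.96% of all genes were), and its part in the Scn4a result was not tested.

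Promoter sequences of RefSeq, 250 bases before to 50 bases after the gene start in build GRCm38.p6, were found for 32 of the 44 genes, with Scn2a1 under its present symbol Scn2a. The 3 shown belong to Scn4a, the member that rose in Akita, and to Cacna2d1 and Cacna1d, the 2 with the smallest p among those that fell. Capitals mark the CG dinucleotides, and each runs 5′ to 3′ along its gene. Scn4a lies at chr11:106349341-106349640 (minus strand), Cacna2d1 at chr5:15934441-15934740 (plus strand) and Cacna1d at chr14:30491107-30491406 (minus strand).
Scn4a: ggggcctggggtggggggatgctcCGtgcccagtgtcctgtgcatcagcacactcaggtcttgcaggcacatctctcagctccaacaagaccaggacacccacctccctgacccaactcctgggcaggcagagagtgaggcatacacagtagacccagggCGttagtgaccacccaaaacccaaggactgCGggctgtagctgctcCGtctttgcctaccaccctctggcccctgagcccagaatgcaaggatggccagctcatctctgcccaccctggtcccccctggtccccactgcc
Cacna2d1: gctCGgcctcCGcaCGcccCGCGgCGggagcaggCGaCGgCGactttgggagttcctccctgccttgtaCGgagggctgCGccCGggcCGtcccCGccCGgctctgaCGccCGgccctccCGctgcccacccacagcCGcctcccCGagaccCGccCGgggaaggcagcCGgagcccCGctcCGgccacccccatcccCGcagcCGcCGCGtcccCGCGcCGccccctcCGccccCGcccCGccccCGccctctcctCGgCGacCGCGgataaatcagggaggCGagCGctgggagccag
Cacna1d: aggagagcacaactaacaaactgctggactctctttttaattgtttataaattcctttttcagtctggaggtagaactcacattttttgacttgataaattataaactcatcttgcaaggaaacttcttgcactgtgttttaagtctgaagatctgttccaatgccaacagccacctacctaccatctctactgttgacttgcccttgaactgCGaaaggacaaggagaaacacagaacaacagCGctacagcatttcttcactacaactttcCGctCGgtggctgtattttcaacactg
The Scn4a and Cacna1d promoters hold 4 CG dinucleotides each and that of Cacna2d1 42, against a median of 7 over 27025 promoters of the same length and of 11 over the 32. Cacna1d has 2 promoter entries, and only the first is used here. All 3 sequences matched the mm9 genome letter by letter, each at 1 place: those of Cacna2d1 and Cacna1d at the annotated start of the gene, and that of Scn4a inside the annotated gene. The antioxidant response element core, searched as TGACNNNGC on both strands, stood in 3 of the 32 (Cacna1c, Cacna1s and Scn8a, 9.38%) and in 12.5% of all promoters. CAGCTG, an E-box, stood in 10 of the 32 (31.25%) and in 16.1% of all, and TATAAA only in Cacna1d (3.13%) against 14.2%. These are matches of letters, not of sites in use.

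The neuronal alpha genes Scn1a, Scn2a1, Scn3a and Scn8a encode the pores that carry spikes in central neurons, and Scn1a, Scn2a1, Scn3a, Scn7a and Scn9a lie side by side on chromosome 2. Scn2a1 was 47.6, 32.2 and 31.3 CPM in WT, 22.4, 27.5, 23.99 and 17.7 in Akita and 44.9, 33.00, 32.03, 30.9 and 36.5 in Akita + NACET, and 20.9 to 33.2 CPM (median 27.7) in WT + NACET. No Akita library reached the lowest library of WT or of Akita + NACET. It fell by 0.69 ± 0.19 from WT to Akita (adjusted p = 0.0338) and rose by 0.63 ± 0.17 with NACET in Akita (0.0300). Those calls were lost in 4 and 5 of 18 fits that left out 1 library.

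Scn3a, which in the brain is most abundant early in life, was 21.8, 19.6 and 20.2 CPM in WT, 11.99, 14.2, 15.3 and 10.9 in Akita, 28.05, 23.4, 20.2, 19.7 and 28.9 in Akita + NACET and 10.4 to 19.1 CPM (median 14.3) in WT + NACET. All Akita libraries were below all WT libraries, and no Akita or WT + NACET library reached the lowest Akita + NACET library. The adjusted p of its difference between Akita and WT was 0.0551, just above the threshold, with a 95% interval of −1.07 to −0.22. It rose with NACET in Akita (0.87 ± 0.18, adjusted p = 0.0192), and was higher in Akita + NACET than in WT + NACET (0.73 ± 0.16, 0.00732).

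For Scn8a, whose channel gathers at the axon initial segment, the levels were 37.8, 36.2 and 31.4 CPM in WT, 23.2, 28.6, 22.04 and 28.02 in Akita, 40.4, 39.7, 34.1, 34.7 and 49.8 in Akita + NACET and 20.3 to 35.6 CPM (median 26.1) in WT + NACET. Akita was again below WT and Akita + NACET in every library, and 1 WT + NACET library reached into the Akita + NACET range. The rise with NACET in Akita was 0.64 ± 0.15 (adjusted p = 0.0206) and that of Akita + NACET over WT + NACET 0.59 ± 0.13 (0.00718), while Akita against WT gave −0.46 ± 0.16 (0.0808), not past the threshold.

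The most abundant alpha gene, Scn1a, was 79.7, 52.7 and 55.6 CPM in WT, 45.9, 46.5, 50.6 and 36.2 in Akita, 83.7, 62.8, 55.8, 55.1 and 64.7 in Akita + NACET and 34.8 to 53.95 CPM (median 47.5) in WT + NACET, and the highest Akita library lay below every WT and every Akita + NACET library. It rose with NACET in Akita by 0.52 ± 0.16 (adjusted p = 0.0463) and was higher in Akita + NACET than in WT + NACET by 0.49 ± 0.14 (0.0302). The first of these calls was lost in 9 of 18 fits that left out 1 library, the second in 5. Scn9a, best known from pain-sensing neurons, was low at 3.66, 3.92 and 3.79 CPM in WT, 3.93, 3.59, 2.51 and 2.90 in Akita, 3.17, 4.48, 3.38, 3.23 and 6.99 in Akita + NACET and 1.37 to 2.93 CPM (median 2.56) in WT + NACET. Here WT + NACET was the lowest group, and no library of it reached Akita + NACET (0.87 ± 0.22, adjusted p = 0.0158). Scn7a, known from sodium-sensing glia, passed in no comparison.

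**Figure D3:**
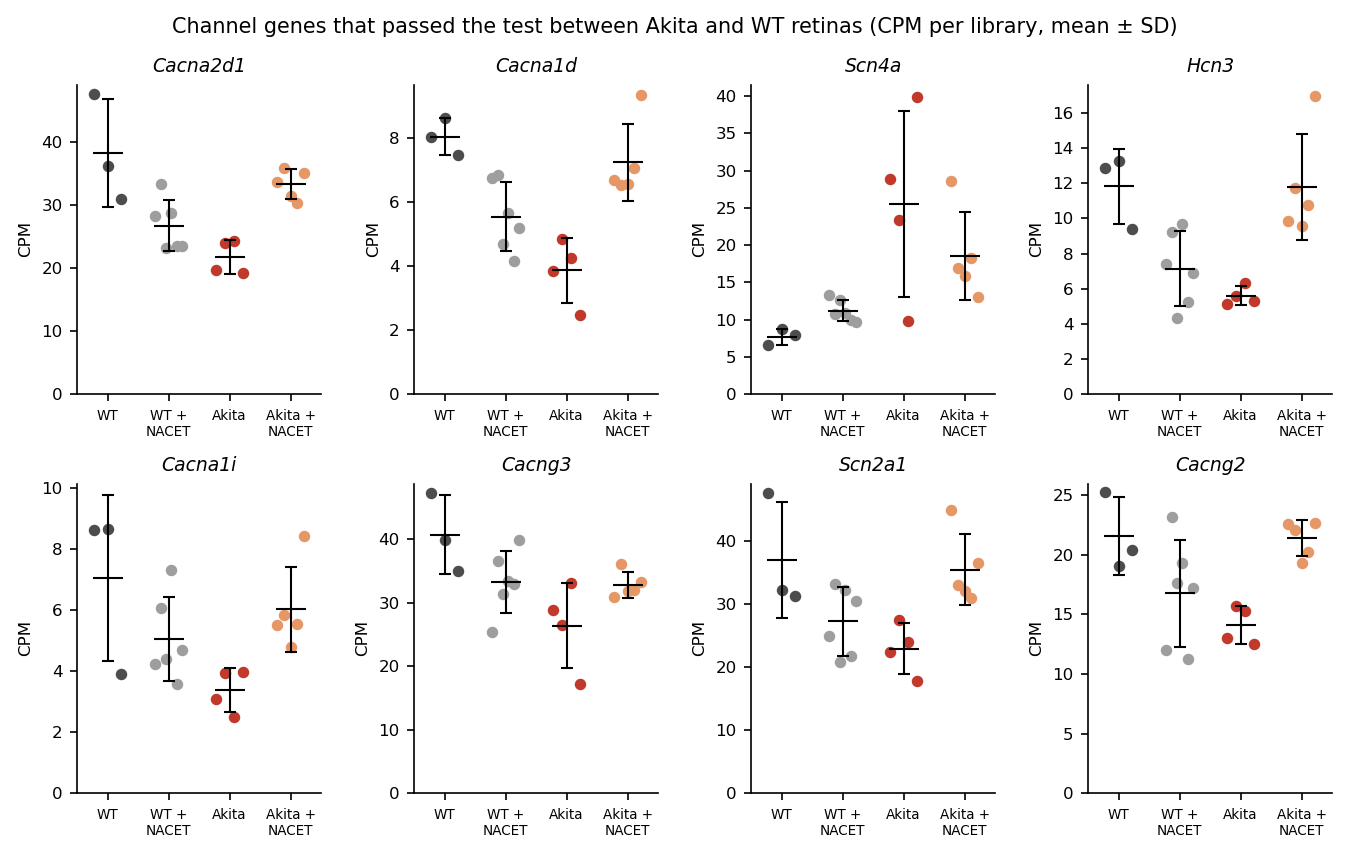
Level in CPM of the 8 channel genes that passed the test between Akita and WT, each point 1 library (WT 3, WT + NACET 6, Akita 4, Akita + NACET 5), with the mean and SD in black. Scn4a is lowest in WT and widest in Akita (9.86 to 39.9), and the other 7 are lowest on average in Akita.

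The 4 sodium channel beta genes, which encode the accessory subunits, passed in none of the 6 comparisons, although all 4 had negative fold changes in Akita against WT (median −0.50) and positive ones in Akita + NACET against Akita (median 0.48), where 48.4% and 49.6% of all genes were positive. Scn2b, the most abundant, was 87.5, 53.8 and 62.98 CPM in WT, 42.8, 50.6, 52.1 and 27.2 in Akita, 77.1, 63.5, 70.5, 53.8 and 62.04 in Akita + NACET and 39.6 to 85.3 CPM (median 64.9) in WT + NACET. Its Akita libraries lay below all WT and all Akita + NACET libraries, and the adjusted p was 0.0978 and 0.0852, with 95% intervals of −1.17 to −0.14 and 0.14 to 1.05. Akita replicate 4 was the lowest library for each of the 4 beta genes.

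Of the calcium channel pores, Cacna1f, that of photoreceptors, passed in no comparison. Its level was 205, 219.5 and 221 CPM in WT, 240.1, 239, 157 and 292 in Akita, 217, 214, 192, 209 and 235 in Akita + NACET and 157 to 261 CPM (median 205) in WT + NACET. Its groups overlapped in every comparison, and the 95% interval of Akita against WT was −0.24 to 0.46. Of the 10 alpha1 genes, 8 had negative fold changes in that comparison, with 2 past the test (48.4% of all genes were positive and 7.64% passed), and 9 of 10 had positive ones in Akita + NACET against Akita, with 4 past it (49.6% and 9.65% of all genes).

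Cacna1d encodes an L-type pore that opens at rather negative voltages and is used by amacrine cells and other neurons. Its level was 8.04, 8.63 and 7.47 CPM in WT, 3.86, 4.86, 4.27 and 2.49 in Akita, 6.68, 6.54, 6.57, 7.08 and 9.34 in Akita + NACET and 4.16 to 6.86 CPM (median 5.43) in WT + NACET. The highest Akita library was below the lowest WT and the lowest Akita + NACET library, and WT + NACET lay wholly below WT. It fell by 1.04 ± 0.21 in Akita (adjusted p = 0.0155), to 0.486 of the WT level, and rose by 0.89 ± 0.19 with NACET (0.0192).

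The T-type pores Cacna1g, Cacna1h and Cacna1i give low-threshold calcium currents, known in bipolar cells among others. Cacna1i was 8.62, 8.63 and 3.91 CPM in WT, 3.09, 3.94, 2.51 and 3.98 in Akita, 5.51, 5.83, 4.79, 5.53 and 8.42 in Akita + NACET and 3.57 to 7.32 CPM (median 4.55) in WT + NACET. WT replicate 3 lay among the Akita libraries, while Akita and Akita + NACET did not overlap. The gene fell in Akita (−1.06 ± 0.28, adjusted p = 0.0299) and rose with NACET (0.83 ± 0.25, 0.0430). Those calls were lost in 5 and 6 of 18 fits that left out 1 library. Cacna1g, at 10.9, 10.6 and 7.35 CPM in WT, 6.52, 5.85, 5.09 and 4.23 in Akita, 8.13, 8.78, 6.70, 6.71 and 11.95 in Akita + NACET and 4.63 to 9.19 CPM (median 5.70) in WT + NACET, was close to the threshold in Akita against WT (−0.82 ± 0.25, adjusted p = 0.0502), with no overlap. For Cacna1h the groups overlapped in every comparison, and it passed in none.

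The presynaptic pores Cacna1a and Cacna1b, of the P/Q and N types, had levels of a few CPM. Cacna1b was 5.39, 4.80 and 4.88 CPM in WT, 3.51, 3.59, 3.39 and 3.48 in Akita, 6.68, 5.07, 4.08, 4.97 and 6.20 in Akita + NACET and 3.27 to 5.68 CPM (median 4.47) in WT + NACET. The 4 Akita libraries lay close together and below every library of WT and Akita + NACET, and the rise with NACET was 0.63 ± 0.18 (adjusted p = 0.0375), a call lost in 8 of 18 fits that left out 1 library. Cacna1a was 4.74, 4.72 and 4.03 CPM in WT, 3.02, 3.82, 2.64 and 1.33 in Akita, 5.37, 3.95, 2.36, 3.92 and 6.53 in Akita + NACET and 1.90 to 3.72 CPM (median 2.80) in WT + NACET, with WT above all Akita and all WT + NACET libraries, and passed only in the test of the NACET effects against each other. Cacna1e, the R-type pore, averaged 0.898 ± 0.400 CPM in WT, 0.389 ± 0.116 in Akita and 0.891 ± 0.210 in Akita + NACET, and rose with NACET in Akita (adjusted p = 0.0496) from 195 counts in all, a call that was lost in 14 of 18 fits that left out 1 library. Cacna1c and the muscle gene Cacna1s passed in no comparison.

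The alpha2delta genes held the member with the smallest p in Akita against WT. Cacna2d1, which encodes a target of gabapentin, was 47.7, 36.2 and 30.9 CPM in WT, 19.6, 23.9, 24.3 and 19.2 in Akita, 33.7, 35.95, 31.5, 30.3 and 35.01 in Akita + NACET and 23.1 to 33.3 CPM (median 25.9) in WT + NACET. All 4 Akita libraries were below all WT and all Akita + NACET libraries, and WT overlapped WT + NACET. It fell by 0.81 ± 0.14 in Akita (adjusted p = 0.0120) and rose by 0.61 ± 0.13 with NACET (0.0193). In WT + NACET against WT it had the smallest adjusted p of the members, 0.0539, at −0.52 ± 0.13, and DESeq2 gave 0.0159.

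Cacna2d2 was 18.8, 15.03 and 11.8 CPM in WT, 7.08, 8.92, 8.29 and 10.7 in Akita, 16.95, 12.8, 9.13, 13.98 and 23.2 in Akita + NACET and 7.51 to 12.9 CPM (median 10.3) in WT + NACET. Akita + NACET replicate 3 lay within the Akita range. The gene rose with NACET in Akita (0.80 ± 0.22, adjusted p = 0.0318), and Akita against WT gave −0.80 ± 0.24 (0.0502), just above the threshold. The call with NACET was lost in 5 of 18 fits that left out 1 library. Cacna2d4, the photoreceptor member, went the other way, at 309, 344 and 364 CPM in WT, 379, 348, 349 and 515 in Akita, 266, 313, 305, 331 and 292 in Akita + NACET and 323 to 458 CPM (median 363) in WT + NACET. Every Akita library exceeded every Akita + NACET library, and it fell by 0.40 ± 0.12 (adjusted p = 0.0440), with −0.25 without Akita replicate 4 (0.168). That call was lost in 11 of 18 fits that left out 1 library. In the same comparison Gnat1, Nrl and Pde6a of the 5 rod markers summed above passed as lower. So did Gnat2, Pde6c and Pde6h of 6 cone markers, where 5.14% of all genes were called lower. The rest of these markers did not pass, and the part of any of them in the Cacna2d4 result was not tested. Cacna2d3 passed nowhere.

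Of the 4 genes for cytoplasmic beta subunits, none passed between any 2 groups, and their fold changes in Akita against WT ran from −0.38 to −0.18. Cacnb2, the beta subunit of photoreceptor channels, was 98.4, 84.2 and 97.2 CPM in WT, 70.5, 80.4, 64.7 and 73.4 in Akita, 97.3, 94.00, 88.1, 99.1 and 135 in Akita + NACET and 49.8 to 102 CPM (median 75.8) in WT + NACET. Its Akita libraries were below all WT and all Akita + NACET libraries, with adjusted p = 0.271 and 0.0862. Cacnb4 was 34.5, 24.3 and 26.2 CPM in WT, 21.8, 24.1, 22.1 and 19.1 in Akita, 33.9, 29.1, 28.4, 23.1 and 26.8 in Akita + NACET and 19.6 to 31.4 CPM (median 24.8) in WT + NACET, where Akita was below WT throughout and overlapped Akita + NACET. For Cacnb3, the most abundant per kilobase, the levels were 57.7, 37.5 and 36.9 CPM in WT, 41.9, 44.5, 43.4 and 25.6 in Akita, 61.7, 48.5, 51.8, 37.9 and 41.99 in Akita + NACET and 28.7 to 50.5 CPM (median 45.7) in WT + NACET, and the groups overlapped in every comparison.

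Cacng2 and Cacng3, whose proteins escort AMPA receptors, were the gamma genes that passed between groups. Cacng2, or stargazin, was 25.3, 19.03 and 20.4 CPM in WT, 13.04, 15.7, 15.3 and 12.5 in Akita, 22.6, 22.04, 19.3, 20.3 and 22.7 in Akita + NACET and 11.2 to 23.2 CPM (median 17.4) in WT + NACET. Akita did not overlap WT or Akita + NACET, and the gene fell by 0.61 ± 0.19 in Akita (adjusted p = 0.0492) and rose by 0.59 ± 0.17 with NACET (0.0331), although the call against WT was lost in 14 of 18 fits that left out 1 library. Cacng3 was 47.2, 39.9 and 34.9 CPM in WT, 28.8, 26.5, 33.1 and 17.2 in Akita, 30.9, 36.01, 31.8, 31.9 and 33.3 in Akita + NACET and 25.4 to 39.9 CPM (median 33.2) in WT + NACET. It fell in Akita (−0.62 ± 0.17, adjusted p = 0.0306), with no overlap, and Akita + NACET overlapped Akita (0.31 ± 0.15, 0.168). Cacng4 was 9.91, 9.03 and 8.67 CPM in WT, 7.64, 6.66, 7.47 and 4.14 in Akita, 8.82, 8.13, 7.66, 9.07 and 10.97 in Akita + NACET and 6.53 to 8.11 CPM (median 7.01) in WT + NACET, so that WT lay above all WT + NACET and all Akita libraries (adjusted p = 0.226 and 0.0773). Cacng5, Cacng7 and Cacng8 passed in none.

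Of the HCN genes only Hcn3 passed. It was 12.9, 13.3 and 9.39 CPM in WT, 5.12, 5.62, 6.34 and 5.30 in Akita, 9.85, 11.7, 9.57, 10.8 and 16.98 in Akita + NACET and 4.32 to 9.70 CPM (median 7.16) in WT + NACET. The 4 Akita libraries were the tightest group and lay below every WT and every Akita + NACET library. It fell by 1.08 ± 0.24 in Akita (adjusted p = 0.0168), rose by 1.07 ± 0.22 with NACET (0.0162) and was higher in Akita + NACET than in WT + NACET (0.72 ± 0.19, 0.0179). Exons of Hcn3 overlap those of Pklr on the opposite strand, and the counting took no account of strand.

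**Figure D4:**
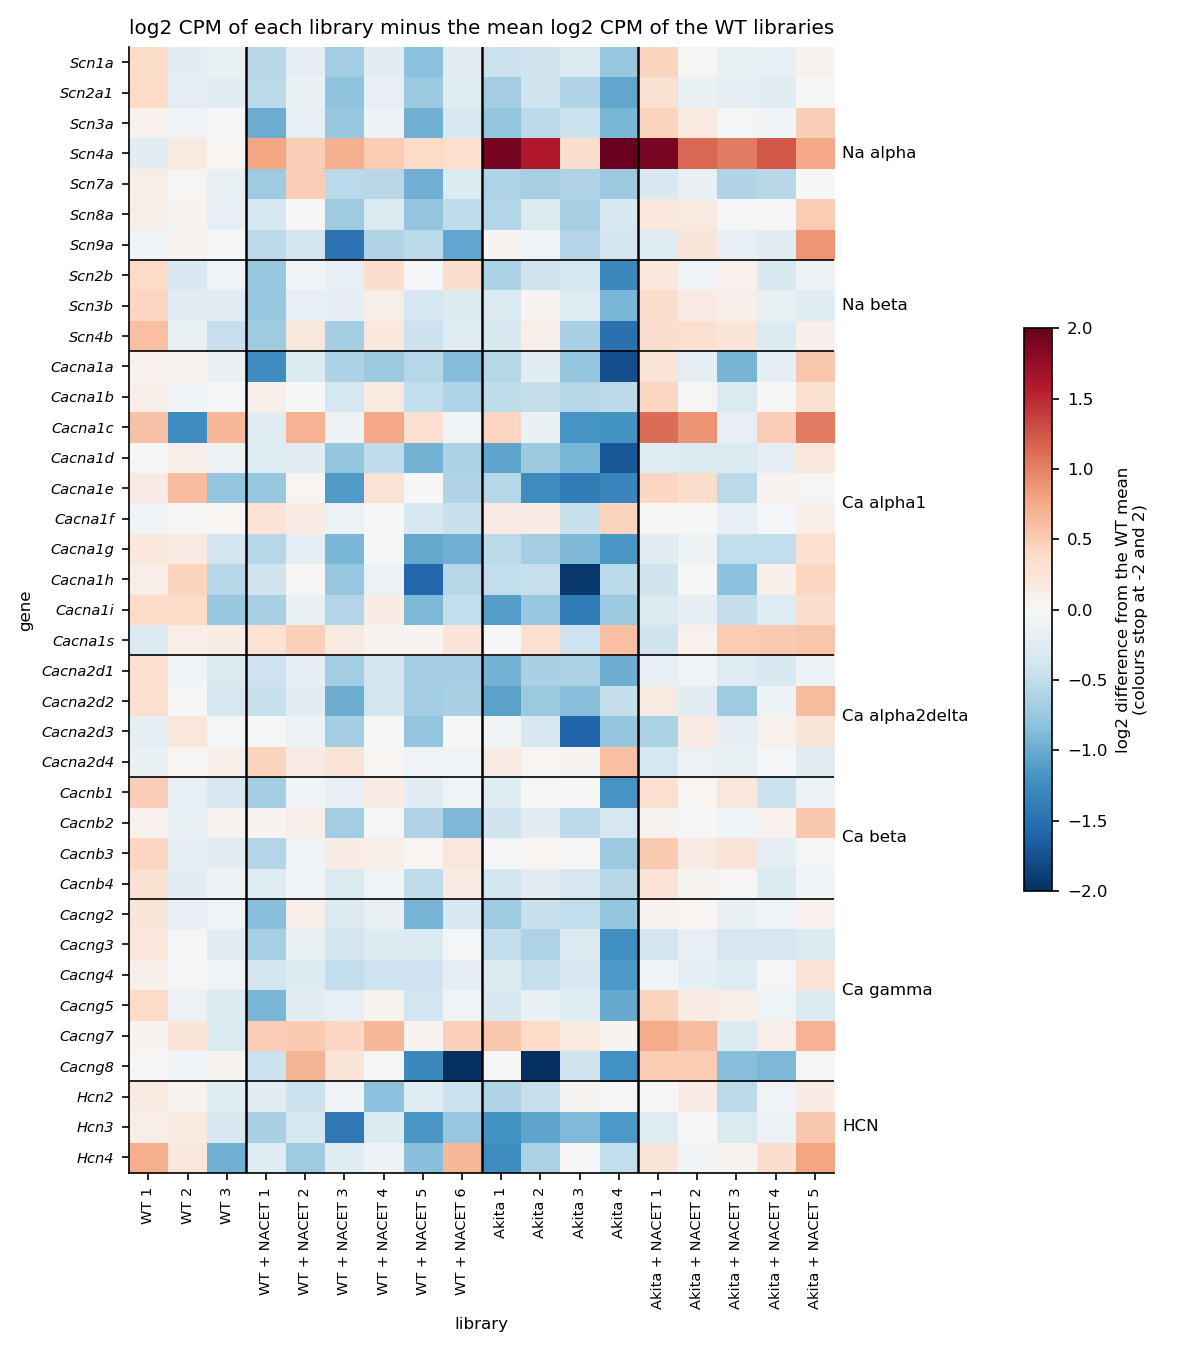
Log2 CPM of 37 tested channel genes in each of the 18 libraries minus the mean log2 CPM of the 3 WT libraries, with families set apart by horizontal lines and groups by vertical ones (red above WT, blue below, colours stop at −2 and 2). Scn4a is red in all 15 libraries outside WT, and most other genes are blue in Akita and near white in Akita + NACET.

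The test of the NACET effect in Akita minus that in WT asked whether treatment acted alike in the 2 genotypes. It passed for 20 members (50.0%), against 20.3% of all genes, 19 of them with a positive difference (10.1% of all genes) and Cacna2d4 with a negative one (10.2%). At an unadjusted p under 0.05 there were 27 members, against 35.6% of all genes. Among the larger differences were those of Hcn3 (1.80 ± 0.31, adjusted p = 0.00188), Cacna1e (1.53 ± 0.52, 0.0434), Cacna1d (1.42 ± 0.26, 0.00268) and Cacna1a (1.38 ± 0.39, 0.0204). For Scn3a it was 1.38 ± 0.26 (0.00284) and for Cacna2d1 1.13 ± 0.18 (0.00176). In all 19 the fold change of NACET was positive in Akita and negative in WT. In Scn4a the difference was −0.99 ± 0.42 (0.103). With each library's percentage of reads beyond exons in the model none of the 20 passed, and 17 genes in all did. The difference then shrank by over 1.5 times, or changed sign, in 15 of the 20, among them Cacna1g (0.01, from 1.22), Scn8a (0.35, from 1.06), Cacna2d1 (0.64), Hcn3 (0.84) and Cacna1d (0.70). Of the 20 members and 3289 genes in all that passed, 10 and 1699 did without WT replicate 1, and 12 and 1730 without WT replicate 2. There were 13 members without Akita replicate 4, Akita + NACET replicate 5 or WT + NACET replicate 3, with 3013, 2449 and 2455 genes in all, and 16 members without WT + NACET replicate 5, with 2756. The calls of Cacng3, Cacna1e, Cacnb2, Cacnb4, Cacna1b, Scn9a and Cacna2d4 were lost in 14, 12, 11, 11, 10, 9 and 8 of 18 fits that left out 1 library.

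NACET in WT, taken alone, gave no member past the threshold in edgeR, where 1.48% of all genes passed. At an unadjusted p under 0.05 there were 13 members (19.5% of all genes), 6 did not overlap between the groups (11.5%), and DESeq2 called 2, Cacna2d1 and Hcn3. Of the 40 fold changes 35 were negative, with a median of −0.29 against −0.01 over all genes. Akita + NACET against WT gave none either, against 0.00618% of all genes, and only Scn4a had an unadjusted p under 0.05 (4.63% of all genes) or groups that did not overlap (4.17%). There the median was −0.01, with 18 positive and 22 negative. Akita + NACET against WT + NACET gave 5 members, or 12.5%, against 13.3% of all genes: Scn8a, Scn3a, Scn9a, Hcn3 and Scn1a, all higher (6.01% of all genes were). At an unadjusted p under 0.05 there were 15 members against 31.1% of all genes, and 3 did not overlap, against 8.01%. The 5 members and 2148 genes that passed became 2 and 860 without Akita + NACET replicate 5, 8 and 2710 without Akita replicate 4, 9 and 2277 without WT + NACET replicate 2, and 4 and 1265 without WT + NACET replicate 5. With each library's percentage of reads beyond exons in the model there were 0 members and 194 genes, and the differences were 0.32 for Hcn3, 0.30 for Scn8a and 0.32 for Scn9a.

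Genes that work with these channels were read from lists, none of them past the test in WT + NACET against WT or in Akita + NACET against WT. Of 9 tested partners of sodium channels, none passed in Akita against WT (7.64% of all genes did), and 1 in Akita + NACET against Akita (9.65%), the adhesion gene Nrcam (82.6 to 102 CPM on average, 0.30, adjusted p = 0.0399). In Akita + NACET against WT + NACET, where 13.3% of all genes passed, the ubiquitin ligase gene Nedd4l (0.49, adjusted p = 0.00826) and the adhesion gene Nfasc (0.37, 0.0331) were higher. In the difference of NACET effects, 4 of the 9 passed (20.3% of all genes), all positive: Ank3 (0.52), Fgf13 (0.51), Nedd4l (0.51) and Nrcam (0.48). Of 20 tested partners of calcium channels, 3 passed as lower in Akita (3.68% of all genes were called lower): the calcium sensor Cabp1 (30.7 to 20.9 CPM, −0.55, 0.0349), the active zone gene Rimbp2 (7.25 to 4.08 CPM, −0.83, 0.0344) and the release channel Ryr2 (10.1 to 3.92 CPM, −1.36, 0.0142). Cabp1 and Ryr2 rose with NACET in Akita (0.53 and 1.09). Cabp4, the calcium sensor of the photoreceptor channel, fell there from 340.5 to 248 CPM (−0.45, 0.0280), which makes 3 of the 20 against 9.65% of all genes. In the difference of NACET effects 9 of the 20 passed, against 20.3% of all genes, with Cabp4 negative (−0.57) and Bsn, Cabp1, Erc1, Pclo, Rimbp2, Ryr2, Ryr3 and Stac3 positive (0.66 to 1.85).

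Of 5 partners of HCN channels, only Kcne2 fell with NACET in Akita (90.8 to 61.8 CPM, −0.55, 0.0270), where 5.14% of all genes were called lower. It was also lower in Akita + NACET than in WT + NACET (−0.66, 0.00425), where 13.3% of all genes passed. It was the 1 of the 5 that passed in the difference of NACET effects (−0.91), near the share of all genes, 20.3%. Among 8 related cation channel genes, only Nalcn, the sodium leak pore, passed in Akita against WT, as lower (28.9 to 18.8 CPM, −0.61, 0.0260). Of all genes 3.68% were called lower there. With NACET in Akita 3 of the 8 rose, against 4.51% of all genes. They were Nalcn (0.52, 0.0278), Unc79, which holds Nalcn in place (0.66, 0.0316), and Catsper4 (0.94, 0.0463). Nalcn, Unc79 and Catsper4, 3 of the 8, passed as positive in the difference of NACET effects, against 20.3% of all genes.

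Over all groups together, Cacna2d1 was lower in the libraries with the lowest shares of reads outside exons than in those with the highest. In the 5 libraries with the lowest shares (9.55 to 11.3%), which came from WT + NACET and Akita, Cacna2d1 was 19.2 to 24.3 CPM, and in the 5 with the highest (16.5 to 19.8%), from WT, WT + NACET and Akita + NACET, it was 33.3 to 47.7 CPM. Scn4a in the same libraries was 9.68 to 39.9 CPM and 6.61 to 16.97 CPM. In WT and WT + NACET the library with the highest share also had the highest Cacna2d1, and in Akita the library with the lowest share did. In Akita + NACET replicate 5 had the highest share (19.8%, Cacna2d1 35.01 CPM) and replicate 2 the highest Cacna2d1 (35.95 CPM, share 16.9%). Within Akita, shares of 13.3, 12.9, 9.67 and 10.2% in replicates 1 to 4 went with Cacna2d1 at 19.6, 23.9, 24.3 and 19.2 CPM. The sum of the amacrine markers was 335 to 465 CPM in WT, 267 to 396 in WT + NACET, 207 to 303 in Akita and 321 to 375 in Akita + NACET. Of 5 tested, Gad1, Gad2, Slc32a1 and Slc6a9 passed as lower in Akita against WT, where 3.68% of all genes did. Only Slc32a1 passed as higher in Akita + NACET against Akita, where 4.51% of all genes did. None of 6 ganglion cell markers passed in either, where 7.64% and 9.65% of all genes did. The part of these in the channel results was not tested. The fit with reads outside exons as a term separates that share from the groups poorly in these comparisons.

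**Figure D5:**
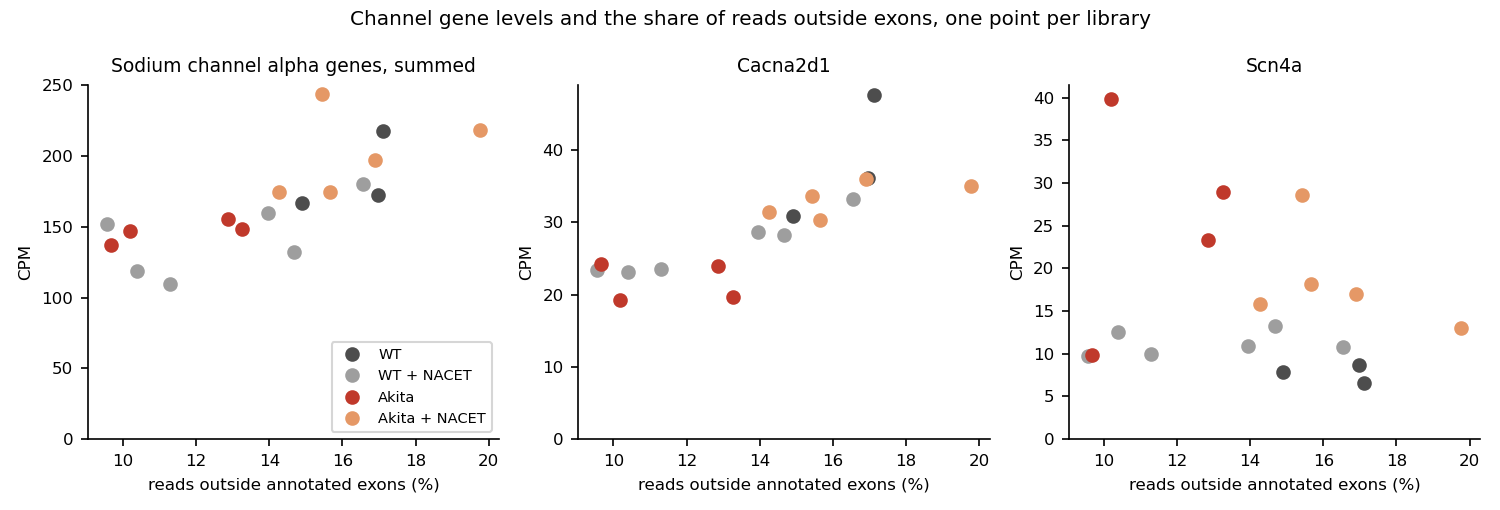
Summed CPM of the 10 sodium channel alpha genes, of Cacna2d1 and of Scn4a against the share of reads outside annotated exons in percent, 1 point per library, coloured by group. Sodium channel alpha genes and Cacna2d1 run from low at the left, where Akita libraries and some of WT + NACET lie, to high at the right, and Scn4a does not.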

How the data were processed

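Retinal poly(A) RNA was sequenced single-end on an Illumina NextSeq 500 after TruSeq RNA v2 preparation. Per the labels and the study's methods, the authors aligned reads to mm9 with TopHat2 2.1.0 and counted them over exons with HTSeq 0.11.2, without regard to strand. They deposited 1 table of raw counts per gene for each of the 18 libraries. The annotation behind these counts is not given in the sources used here. Without strand, reads of overlapping genes on opposite strands cannot be told apart, which touches Cacna1a, Cacna1d, Cacna1h, Cacna2d2, Cacnb1, Cacnb2, Cacnb4, Cacng2, Hcn3 and Scn9a.

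From the counts, 185 ribosomal RNA genes and 1 entry with no name (0.00505 to 0.00596% of the counts) were left out, and genes were kept by edgeR's filter with a minimum count of 10 and a minimum total of 15, which left 16183 genes. TMM scaling and edgeR 4.0.16 (R 4.3.3, limma 3.58.1) with the quasi-likelihood test were used on all 4 groups together, and p-values were adjusted by Benjamini-Hochberg over all genes tested, with a threshold of 0.05. The biological coefficient of variation was 0.186. DESeq2 1.42.0, other filters, 2 groups alone, a replicate block, the percentage of reads beyond exons as a term and leaving out each library were tried as alternatives, and the code was tested on simulated data. CPM per kilobase used exon lengths of the GENCODE annotation on mm9.

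The channel genes and the other gene lists were chosen with earlier results of these data known. Named genes were those that passed in at least 1 comparison with a mean of at least 1 CPM, at most 12 per comparison, and the most abundant member of each family. Cacna1e, at a lower level, and further members were named after their values were seen. Some genes are not reported here by name. Precision is limited by the 3 to 6 libraries per group.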

Additional observations from a re-analysis of the deposited data

Results flagged for a closer look

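In 20 channel genes the effect of NACET in Akita differed from that in WT (edgeR's quasi-likelihood test of the difference, adjusted p from 0.00176 to 0.0496), where 20.3% of all genes tested also passed. With each library's percentage of reads beyond exons in the model none of the 20 passed. The log2 difference was 1.80 for Hcn3, 1.53 for Cacna1e, 1.42 for Cacna1d, 1.38 for Cacna1a, 1.38 for Scn3a, 1.36 for Cacna2d2, 1.31 for Cacna1i, 1.22 for Cacna1g, 1.13 for Cacna2d1 and 1.10 for Scn9a. For Scn2a1 it was 1.07, for Scn8a 1.06, for Scn1a 0.97, for Cacng2 0.96, for Cacng4 0.81, for Cacnb2 0.80, for Cacna1b 0.79, for Cacng3 0.60, for Cacnb4 0.55 and for Cacna2d4 −0.54.

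A library lay apart from the rest of its group in 4 of 69 gene and group combinations, near the 1 in 20 that chance gives. WT, with 3 libraries, was not screened. Akita + NACET replicate 5 was high for Cacna1d (9.34 CPM), Cacna1i (8.42 CPM) and Cacnb2 (135 CPM), and it also had the highest share of reads outside exons, 19.8%. Akita replicate 4 was low for Cacnb3 (25.6 CPM), and it had the lowest ganglion cell marker sum, 532 CPM.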

How the results depend on the processing

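With each library's percentage of reads beyond exons in the model, 0 channel genes passed in Akita against WT, in Akita + NACET against Akita, in Akita + NACET against WT + NACET and in the difference of NACET effects, and the latter turned to −0.16 for Cacnb2 and −0.11 for Scn9a. Fold changes shrank or turned by over 1.5 times in 4 of 8, 9 of 13, 3 of 5 and 15 of 20 of the genes that had passed, and grew so in 0. The cause was not tested. In Akita against WT and in Akita + NACET against Akita the share did not overlap between the groups, so the fit separates it from them poorly. With the 2 groups alone, 3 passed in Akita against WT and 8 in Akita + NACET against WT + NACET. DESeq2 called 2 in WT + NACET against WT, 1 in Akita + NACET against WT and 10 in Akita + NACET against WT + NACET. In WT + NACET against WT 1 passed with no expression filter and 1 with a mean count of at least 50. Leaving out each library gave 0 to 11 in Akita against WT, 0 to 14 in Akita + NACET against Akita, 0 to 2 in WT + NACET against WT, 0 to 0 in Akita + NACET against WT, 2 to 9 in Akita + NACET against WT + NACET and 10 to 21 in the difference of NACET effects. Over 46 results on single genes, 895 of 1174 other fits kept the call, 277 lost it and 2 changed sign. With the replicate number as a block, 5 channel genes passed in Akita against WT and 4 in Akita + NACET against Akita. Replicate numbers did not pair the libraries: of 22 pairs with the same number, 4 had a correlation of deviations above 0.1 (−0.33 to 0.34, median −0.00). Depth limits genes such as Cacna1e (195 counts over 18 libraries).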
